A study of Mus musculus with 4 samples.

Results

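The CEACAM family of adhesion molecules was examined in mouse mammary tumours that over-express the phosphatase Cdc25a. Its members were taken as every probe outside controls whose gene name on the array starts with Ceacam; the Ceacam10 probe, made from a RIKEN clone, is among them. This gave 9 probes of 8 genes, among 41174 probes with 38354 gene names in all, with 2 probes for Ceacam1 and 1 each for Ceacam2, Ceacam9, Ceacam10, Ceacam11, Ceacam12, Ceacam13 and Ceacam14. The family was chosen by the measured ratio of Cdc25a;neu over neu tumours on these same arrays, so its values in that contrast are given as a description, with no test.

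Tumours came from 2 female mice carrying both MMTV-cdc25a and MMTV-neu (Cdc25a;neu, mice 1868 and 1869) and from 2 female mice with MMTV-neu alone (neu, mice 5 and 6). All were FVB/N mice aged 26 weeks with early-stage tumours labelled T1. Both transgenes are driven by the mouse mammary tumour virus promoter, and MMTV-neu, which expresses the receptor tyrosine kinase Erbb2, was carried by every mouse, so no tumour or gland without it was compared. Mouse 1868 was hybridised with mouse 5 (pair 1) and mouse 1869 with mouse 6 (pair 2) on 2-colour Agilent arrays, each pair on 2 arrays with the dyes swapped. The 2 arrays of a pair carry the same RNA, so the mouse pair is the replicate (n = 2), and errors are SDs between pairs.

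CEACAM proteins belong to the immunoglobulin superfamily and carry an outer variable-type domain through which cells or neighbouring molecules bind each other. CEACAM1 spans the membrane, is made by epithelium, endothelium and leukocytes, and in its long form carries inhibitory tyrosine motifs that recruit the phosphatases SHP-1 and SHP-2; in cultured human mammary cells it takes part in lumen formation. CEACAM2 is its closest relative in the mouse, CEACAM10 is a secreted protein of variable-type domains, and CEACAM9 and CEACAM11 to CEACAM14 are known mainly from the placenta.

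All 8 genes lie on chromosome 7, per RefSeq on GRCm38.p6. Ceacam10 occupies chr7:24777167-24784656, Ceacam1 chr7:25461702-25477647 and Ceacam2 chr7:25516042-25540004. The 250 bases before the RefSeq starts of these 3 genes (GRCm38.p6) are shown because Ceacam10 and Ceacam1 have nearly the same upstream sequence. They were picked also because Ceacam10 and the Ceacam1 probe A_51_P171728 gave the largest pair ratios in size of the family. That probe had opposite signs in the pairs. Both Ceacam1 probes had mean log2 ratios (-0.12 and 0.03) smaller in size than that of Ceacam2 (0.32). Any link between upstream sequence and ratio was not tested. The Ceacam10 sequence is chr7:24776917-24777166 on the plus strand, the Ceacam1 sequence chr7:25477626-25477875 on the minus strand and the Ceacam2 sequence chr7:25540005-25540254 on the minus strand. The start used for Ceacam1 is that of its RefSeq window, which lies inside the gene as annotated, so 22 bases of its sequence are within the gene. Capitals mark the E-box CACGTG.
Ceacam10: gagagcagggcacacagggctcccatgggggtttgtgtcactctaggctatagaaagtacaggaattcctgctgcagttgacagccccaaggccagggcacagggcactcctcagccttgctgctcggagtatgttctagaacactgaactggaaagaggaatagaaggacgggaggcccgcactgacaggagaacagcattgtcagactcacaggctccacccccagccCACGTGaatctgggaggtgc
Ceacam1: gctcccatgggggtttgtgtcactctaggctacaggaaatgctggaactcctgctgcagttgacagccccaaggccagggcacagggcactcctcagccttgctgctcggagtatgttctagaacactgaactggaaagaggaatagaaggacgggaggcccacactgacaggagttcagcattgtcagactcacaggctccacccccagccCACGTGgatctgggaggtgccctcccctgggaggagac
Ceacam2: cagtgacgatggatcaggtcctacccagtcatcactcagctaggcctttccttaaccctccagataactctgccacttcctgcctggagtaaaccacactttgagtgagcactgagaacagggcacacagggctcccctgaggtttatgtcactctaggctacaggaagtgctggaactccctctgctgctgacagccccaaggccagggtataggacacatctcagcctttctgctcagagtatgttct

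In the best local alignment, the Ceacam10 and Ceacam1 sequences were identical at 222 of 232 aligned columns with 0 gaps (95.7%). Ceacam10 and Ceacam2 were identical at 117 of 138 columns (84.8%), and Ceacam1 and Ceacam2 at 104 of 120 (86.7%). The E-box CACGTG, a palindrome, began 20 bases before the Ceacam10 start and 38 bases before the Ceacam1 start used here, which is 16 bases before the outermost end of the annotated gene. It had no match in the windows searched for Ceacam2, Ceacam9, Ceacam11, Ceacam12 or Ceacam13, and 6.02% of all 32851 mouse windows of this length held it. The CACCC box CCACCCC, searched on both strands and not overlapping the E-box, stood in the windows of Ceacam10, Ceacam1 and Ceacam9 and in 13.5% of all windows. The GC box GGGCGG stood in none (0) of the 7 windows searched, 1 per gene, and in 32.7% of all windows. Ceacam10 and Ceacam12 had 2 windows each, of which only that at the outermost gene start was searched. Ceacam14 had no window and was named only.

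Ceacam10 had the largest ratio of the family and was higher in Cdc25a;neu tumours on every array. In pair 1 its probe read 1322 (Cy5) and 418 (Cy3) intensity units in the Cdc25a;neu tumour, against 149 (Cy3) and 253 (Cy5) in the neu tumour. In pair 2 it read 690 (Cy5) and 552 (Cy3) in the Cdc25a;neu tumour, against 172 (Cy3) and 229.5 (Cy5) in the neu tumour. Both Cdc25a;neu tumours therefore lay above both neu tumours in each dye, and every reading was well above a local background of 39.5 to 64 units.

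After background correction and loess normalization, the Ceacam10 log2 ratio of Cdc25a;neu over neu was 2.07 and 2.08 on the arrays of pair 1 and 0.82 and 1.28 on those of pair 2. The pair ratios were 2.08 (4.22-fold) and 1.05 (2.07-fold), and their mean was 1.56 ± 0.73 on the log2 scale (2.95-fold; SD, n = 2 pairs). Its normalized log2 intensity was 9.69 and 8.82 in the Cdc25a;neu mice and 7.61 and 7.77 in the neu mice. The neu mice lay within 0.2 of each other, while the Cdc25a;neu mice stood further apart, with mouse 1868 the highest of the 4. Ceacam10 ranked 12 among 37174 kept probes from the highest mean log2 ratio. Under the alternatives that gave a value for each pair, 12 per pair, its ratio stayed above 0, ranging from 2.03 to 2.57 (pair 1) and from 0.82 to 1.28 (pair 2). Changes of filter could not alter these ratios, and leaving out arrays could not turn their sign, since every array was above 0.

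**Figure D1:**
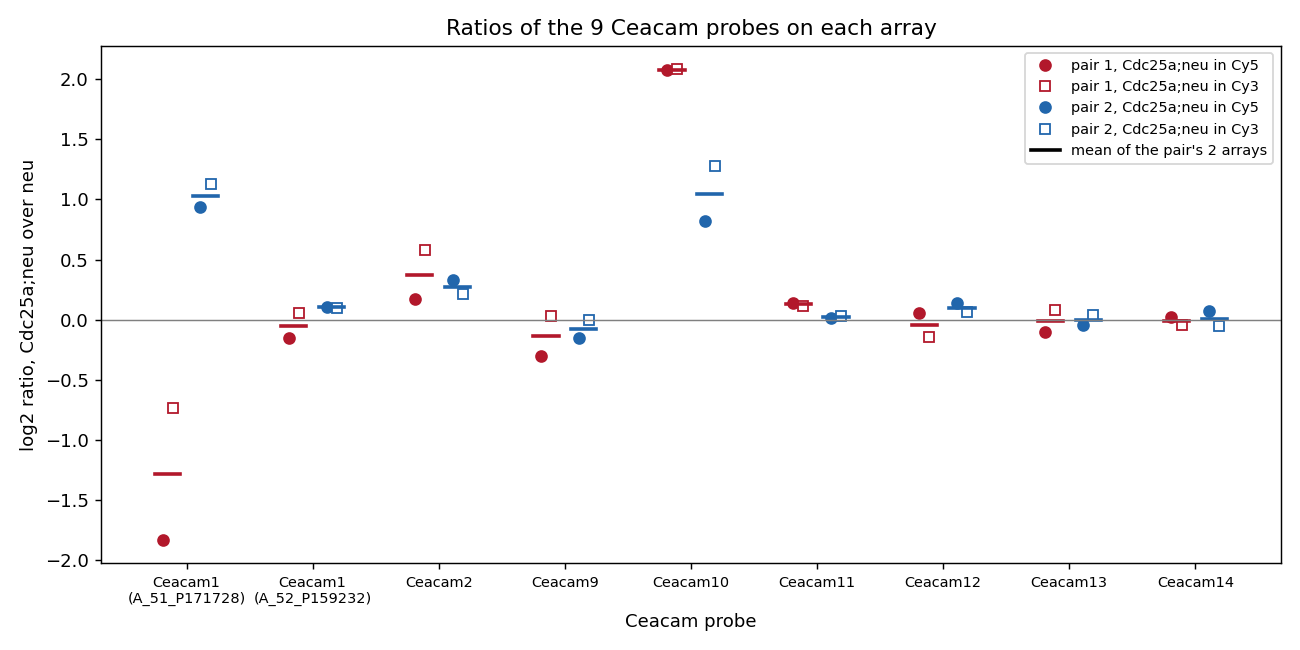
Log2 ratio of Cdc25a;neu over neu for each Ceacam probe on each of the 4 arrays, with pair 1 in red and pair 2 in blue; filled circles have the Cdc25a;neu tumour in Cy5, open squares in Cy3, and bars are the means of a pair's 2 arrays. Ceacam10 lies between 0.82 and 2.08 on all 4 arrays, while one Ceacam1 probe lies below 0 in pair 1 and above 0 in pair 2.

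RNA came from whole tumours, so that fewer cells of a type and less RNA per cell cannot be told apart for any gene here. As a background to the counts below, 4530 of 15304 named genes were higher and 4740 lower in both pairs. Markers of fat cells differed in the same tumours: 8 of 10 were lower and 0 of 10 higher in both pairs, with summed normalized intensities of 2803 and 3517 in the Cdc25a;neu mice, against 7892 and 19371 in the neu mice. Of 10 luminal epithelial markers, 2 were higher and 4 lower in both pairs, with sums of 48115 and 49860 in the Cdc25a;neu mice, against 49377 and 56187 in the neu mice. Of 10 endothelial markers, 7 were higher and 0 lower in both pairs, with small median log2 ratios of 0.04 (pair 1) and 0.19 (pair 2). Their sums were 2074 and 3418 in the Cdc25a;neu mice, against 2016 and 2937 in the neu mice. These sums differed more between the pairs than between the genotypes. Of 8 neutrophil markers, 2 were higher and 3 lower, with sums of 1378 and 2920 in the Cdc25a;neu mice, against 1347 and 1514 in the neu mice. Without lactoferrin (Ltf), which mammary epithelium also makes, these sums were 713 and 783 in the Cdc25a;neu mice, against 749.5 and 701 in the neu mice. Of 7 skeletal muscle markers, 0 were higher and 3 lower in both pairs, with sums of 1104 and 1268 in the Cdc25a;neu mice, against 1180 and 4377 in the neu mice. Neu mouse 6 thus had the highest sum for muscle as well as for fat. The part of these cell types in the Ceacam10 ratio was not tested.

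Ceacam1 gave opposite ratios in the pairs on its probe A_51_P171728. In pair 1 this probe read 304 (Cy5) and 134 (Cy3) units in the Cdc25a;neu tumour, against 488 (Cy3) and 488 (Cy5) in the neu tumour. In pair 2 it read 459 (Cy5) and 429 (Cy3) units in the Cdc25a;neu tumour, against 118 (Cy3) and 197 (Cy5) in the neu tumour. The log2 ratio was -1.83 and -0.73 on the arrays of pair 1 and 0.93 and 1.13 on those of pair 2.

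The pair ratios of this Ceacam1 probe were thus -1.28 and 1.03, averaging -0.12 ± 1.63 (SD, n = 2 pairs), and this mean is far smaller than the spread. Its normalized log2 intensity was 7.71 and 8.34 in the Cdc25a;neu mice and 8.99 and 7.31 in the neu mice. The neu tumours held both the highest and the lowest level, with both Cdc25a;neu tumours between them. This opposition kept its direction in each pair under every alternative that gave a value for that pair, at -1.83 to -0.73 (pair 1) and 0.93 to 1.40 (pair 2). Here too, changes of filter could not alter the ratios. Leaving out arrays could not turn their sign, since both arrays of each pair had the same sign. Pair ratios of opposite sign, each 1 or more in size on the log2 scale, were found for 10 of 37174 kept probes (0.0269%), of which this probe is 1.

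The other Ceacam1 probe (A_52_P159232), designed from the RIKEN clone D730042F10, gave ratios nearer to 0. Pair 1 gave log2 ratios of -0.15 and 0.06 and pair 2 gave 0.11 and 0.10, averaging 0.03 ± 0.11 (SD, n = 2 pairs). In the authors' deposited table it stood at 0.14 (pair 1) and 0.19 (pair 2). Its normalized log2 intensity was 8.31 and 8.16 in the Cdc25a;neu mice and 8.36 and 8.06 in the neu mice, with both Cdc25a;neu mice between the neu mice. On the log2 ratio scale the 2 Ceacam1 probes differed by 1.23 (pair 1) and 0.93 (pair 2). Over 3173 named genes with 2 kept probes, the median difference was 0.0948 (pair 1) and 0.121 (pair 2). The array does not show which transcript each Ceacam1 probe reads, and the probe sequences were not used here.

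**Figure D2:**
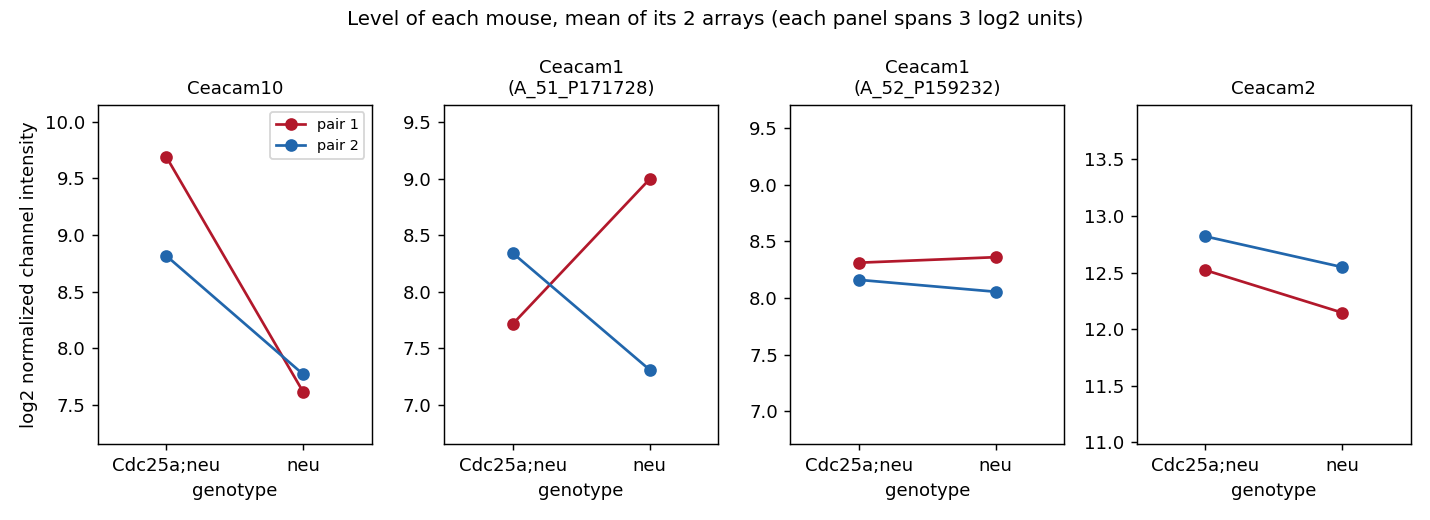
Log2 normalized channel intensity of 4 probes in each mouse, with Cdc25a;neu on the left and neu on the right of each panel; points are means of a mouse's 2 arrays and lines join the mice hybridised together. Ceacam10 is higher in both Cdc25a;neu mice, the lines of the first Ceacam1 probe cross, and those of the second are flatter.

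Most macrophage and fibroblast markers also had opposite signs in the pairs, 6 of 9 and 7 of 10, where 6034 of 15304 named genes did. This was not particular to them: 4 of 6 B cell, 5 of 8 T and NK cell, 4 of 7 basal epithelial and 4 of 7 muscle markers did so too. The counts were lower for luminal (4 of 10), endothelial (3 of 10), fat cell (2 of 10), neutrophil (3 of 8) and platelet (2 of 5) markers. Over 9 macrophage and monocyte markers the median log2 ratio was -0.37 (pair 1) and 0.30 (pair 2), with 1 higher and 2 lower in both pairs. Their summed intensities were 11458 and 41912 in the Cdc25a;neu mice, against 15595 and 16528 in the neu mice, and Lyz2, the lysozyme of these cells, gave -0.45 (pair 1) and 2.03 (pair 2). Lyz2 carried most of the sum of mouse 1869, and without it the sums were 5764 and 9438 in the Cdc25a;neu mice, against 7797 and 8588 in the neu mice. The means of its 2 kept probes were 0.79 and 0.33. Over 10 fibroblast markers it was -0.33 (pair 1) and 0.51 (pair 2), with 0 higher and 3 lower in both pairs and sums of 2302 and 9863 in the Cdc25a;neu mice, against 2974 and 5509 in the neu mice. Their part in the Ceacam1 ratios was not tested.

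Ceacam2 was modestly higher in Cdc25a;neu tumours in both pairs. In pair 1 its probe read 9193 (Cy5) and 2788 (Cy3) units in the Cdc25a;neu tumour, against 3193 (Cy3) and 5676 (Cy5) in the neu tumour. In pair 2 it read 12119 (Cy5) and 8339 (Cy3) in the Cdc25a;neu tumour, against 4074 (Cy3) and 6982 (Cy5) in the neu tumour. The Cy5 reading was the higher one on 3 of the 4 arrays, so these readings followed the dye as well as the mouse. The log2 ratio was 0.17 and 0.58 on the arrays of pair 1 and 0.33 and 0.21 on those of pair 2, averaging 0.32 ± 0.07 (1.25-fold; SD, n = 2 pairs).

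In normalized log2 intensity Ceacam2 stood at 12.52 and 12.82 in the Cdc25a;neu mice and 12.15 and 12.55 in the neu mice. The groups overlapped, since the neu mouse of pair 2 lay above the Cdc25a;neu mouse of pair 1. In the authors' deposited table Ceacam2 stood at 0.32 (pair 1) and -0.00 (pair 2) on the log2 ratio scale, so the difference in pair 2 is not present in their values. Ceacam1 and Ceacam2 are close paralogs, so the probe of one may also bind transcripts of the other, and the values of both are uncertain to that extent.

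The genes known mainly from the placenta gave small ratios, some of them from weak signals. Ceacam9 had log2 ratios of -0.30, 0.03, -0.15 and -0.00 over the 4 arrays and a mean of -0.10 ± 0.04 (SD, n = 2 pairs). Its normalized log2 intensity was 6.19 and 6.34 in the Cdc25a;neu mice and 6.32 and 6.41 in the neu mice, so that the groups overlapped. The Ceacam9 probe was dim, at percentile 13.0 of intensity among kept probes. With the scanner's own processed signals its mean ratio was -0.36, and without the normexp offset it was -0.28.

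Ceacam11 averaged 0.08 ± 0.07 on the log2 ratio scale (SD, n = 2 pairs). Its signal was weak, with the Cdc25a;neu tumour well above background on 3 of the 4 arrays and the neu tumour on 2 of them. It was above 0 on all 4 arrays, at 0.14, 0.11, 0.01 and 0.04, but its mean was -0.04 with median centring in place of loess, 0.37 with the scanner's processed signals, 0.35 with these and loess, and 0.30 without the normexp offset. Ceacam12 had a mean of 0.03 ± 0.10, Ceacam13 of -0.01 ± 0.01 and Ceacam14 of -0.00 ± 0.02 (SD, n = 2 pairs each). The Ceacam12 probe was dim too, at percentile 23.7 of intensity among kept probes. It gave -0.17 (pair 1) and 0.21 (pair 2) without the normexp offset. None of the 3 kept 1 sign over the 4 arrays, and their normalized intensities in the 2 genotypes overlapped.

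Counted over the family, 3 of 9 probes (Ceacam2, Ceacam10 and Ceacam11) were above 0 on all 4 arrays, where 14.2% of all 37174 kept probes were. Below 0 on all 4 arrays were 0 of 9, where 12.6% of all were. Pair ratios of 1 or more on the log2 scale in both pairs, with all 4 arrays above 0, were found for 1 of 9, Ceacam10, where 0.266% of all met it. Nothing is read from these shares, since the ratios themselves chose the family. The limma fit over all kept probes called 0 of 37174 at an adjusted p under 0.05 (0%), against 3505 at an unadjusted p under 0.05, and its lowest adjusted p was 0.245. With median centring in place of loess it called 1109, and with the 4 arrays as units and the pair as a random block 950. By the looser rule of a pair ratio above 0 in both pairs, 3 of 9 Ceacam probes were higher, where 4530 of 15304 named genes were. This looser count was 5 with the processed signals, with or without loess, and with median centring. It was also 5 without the pair 1 array that has Cdc25a;neu in Cy3.

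**Figure D3:**
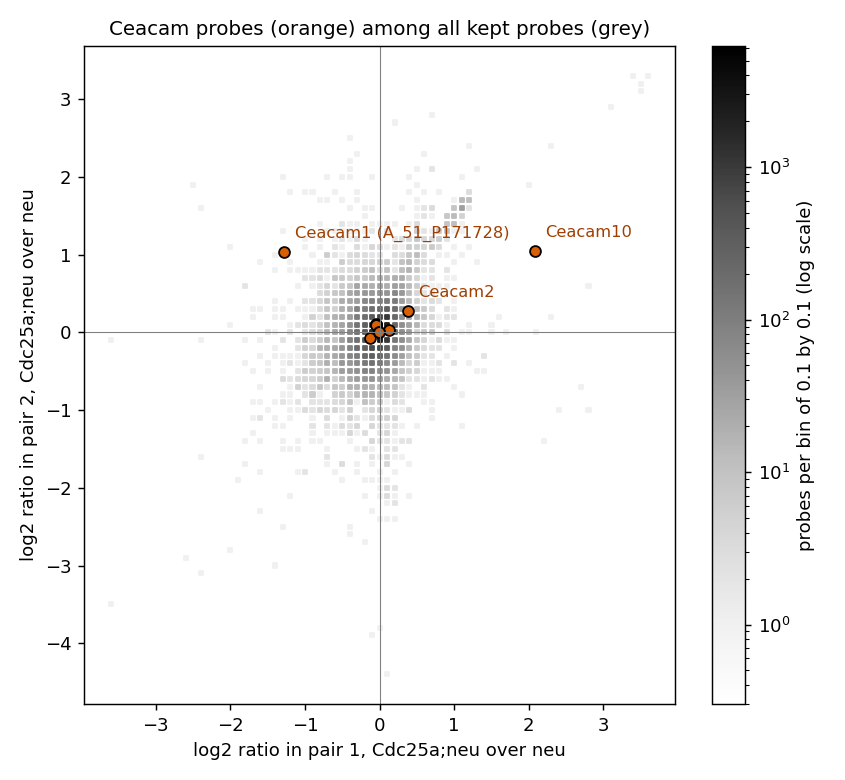
Log2 ratio of Cdc25a;neu over neu in pair 1 (horizontal) and pair 2 (vertical) for the 9 Ceacam probes (orange) over all 37174 kept probes, in grey by the number of probes per bin on a log scale. Ceacam10 lies at 2.08 and 1.05, Ceacam1 (A_51_P171728) at -1.28 and 1.03, and the other 7 probes lie nearer to 0.

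**Figure D4:**
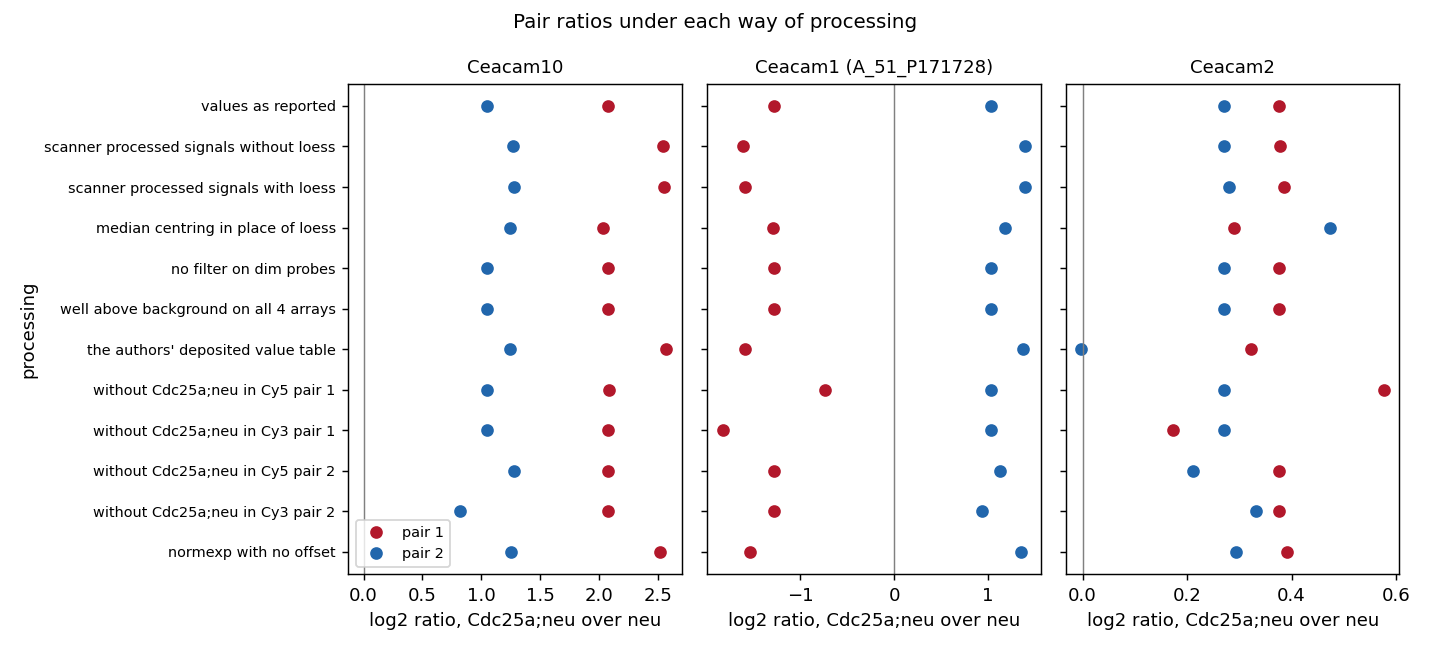
Log2 ratios of pair 1 (red) and pair 2 (blue) for Ceacam10, Ceacam1 (A_51_P171728) and Ceacam2, a row per way of processing, with the reported values at the top; the horizontal scale differs between panels. Ceacam10 stays above 0 throughout, the pairs of the Ceacam1 probe stay on opposite sides of 0, and Ceacam2 reaches -0.00 in pair 2 of the deposited table.

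The pregnancy-specific glycoproteins, the secreted placental branch of the wider family, had 3 of 14 genes with a kept probe. Psg17 gave a mean log2 ratio of 0.09, Psg18 of 0.12 and Psg19 of -0.00. Some probes carry other names on the array but map to this family in RefSeq. Those kept gave 0.02 for Ceacam13 (a probe not counted among the 9) and -0.01 for Ceacam19. The Ceacam19 probe was well above background on 2 arrays only, the fewest that the filter allows. The Psg23 probe and the Ceacam15 probe were too dim to be kept.

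Signalling partners of CEACAM1 were measured for 21 of 22 genes, of which 2 were higher and 7 lower in both pairs, and the median was -0.02 (pair 1) and 0.04 (pair 2) on the log2 ratio scale. Over 15304 named genes, 4530 were higher and 4740 lower in both pairs, and the medians were 0.00 and -0.00. The largest in size were Tlr2, a receptor for bacterial lipoproteins (-0.55 ± 0.62), Egfr, the epidermal growth factor receptor (-0.48 ± 0.06), Zap70, a T cell kinase (-0.29 ± 0.18), and Kdr, the main receptor for vascular endothelial growth factor (0.26 ± 0.02; SD, n = 2 pairs each). Egfr stood at 9.27 and 9.40 in the Cdc25a;neu mice and 9.79 and 9.84 in the neu mice in normalized log2 intensity. Its 3 kept probes gave mean ratios from -0.48 to -0.17. Ptpn6 and Ptpn11, which encode SHP-1 and SHP-2, gave means of -0.01 and 0.01, with opposite signs in the pairs. The other kept probe of Ptpn11 gave a mean of -0.12. The kinase Lyn gave 0.50 (pair 1) and -0.52 (pair 2), and its other kept probe gave a mean of -0.19.

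Regulators known to bind or act on the CEACAM1 gene were measured for all 9 of 9. In both pairs 1 was higher and 4 lower, against 4530 and 4740 of 15304 named genes. The medians of the regulators were -0.07 (pair 1) and -0.09 (pair 2) on the log2 ratio scale. Irf1, an interferon-induced transcription factor, gave -0.43 ± 0.29, Hdac1, a histone deacetylase, -0.43 ± 0.08, Sox9, a transcription factor of epithelial progenitors, -0.35 ± 0.12, and Sp1, a GC box factor, -0.20 ± 0.35 (SD, n = 2 pairs each). Hdac1 had normalized log2 intensities of 8.94 and 9.34 in the Cdc25a;neu mice and 9.42 and 9.71 in the neu mice. Usf1 and Usf2, which bind E-boxes of the kind marked in the sequences above, gave -0.16 ± 0.22 and -0.01 ± 0.11 (SD, n = 2 pairs each).

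Other adhesion molecules with immunoglobulin folds were measured for 28 of 29 genes. In both pairs 15 of these were higher and 6 lower, against 4530 and 4740 of 15304 named genes. The medians of the 28 genes were 0.03 (pair 1) and 0.09 (pair 2). Emb, the transporter partner embigin, gave 1.67 ± 0.54 (SD, n = 2 pairs), with normalized log2 intensities of 10.26 and 11.45 in the Cdc25a;neu mice and 8.97 and 9.40 in the neu mice. Its other kept probe gave 0.92. Ncam1, the neural cell adhesion molecule, gave 1.29 ± 0.33 (SD, n = 2 pairs), at 12.46 and 13.10 in the Cdc25a;neu mice and 11.41 and 11.58 in the neu mice, but another of its 3 kept probes gave -0.01. Vcam1, which binds leukocyte integrins, gave -0.53 ± 0.33, and the junctional molecule Jam2 -0.45 ± 0.01 (SD, n = 2 pairs each). For each of these, too, another kept probe lay near 0, at -0.00 for Vcam1 and 0.00 for Jam2.

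The annotated neighbours of Ceacam10 gave smaller ratios in size than Ceacam10 in each pair. Of the 10 genes on each side, 9 were measured. In both pairs 4 of them were higher and 2 lower, against 4530 and 4740 of 15304 named genes. Mean log2 ratios of the 9 measured neighbours of Ceacam10 ran from -0.26 to 0.31. The highest was the gene directly before it, Cd177, a neutrophil surface protein, at 0.36 (pair 1) and 0.26 (pair 2). Rps19, a ribosomal protein gene, was lowest at -0.68 (pair 1) and 0.16 (pair 2). Around Ceacam1, 7 neighbours were measured, with means from -0.05 to 0.32, the highest being Ceacam2 itself.

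**Figure D5:**
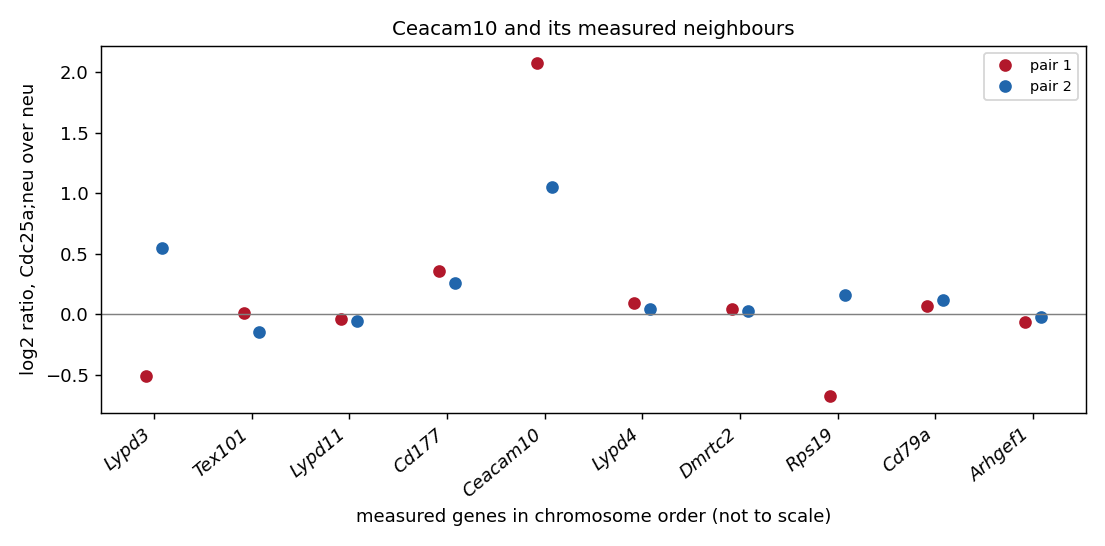
Log2 ratio of Cdc25a;neu over neu in pair 1 (red) and pair 2 (blue) for Ceacam10 and its 9 measured neighbours, in chromosome order and not to scale. Ceacam10 stands at 2.08 and 1.05, and every neighbour's pair ratios lie between -0.68 and 0.54.

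Likeness to Ceacam10 was ranked only among kept probes with a current gene symbol, and 20315 of all 41174 probes had none. The measure was the root-mean-square difference of log2 ratios over the 4 arrays. Among the ranked probes most like Ceacam10 was that of Rbp7, which carries retinol in cells. It differed from Ceacam10 by 0.63 and had a mean log2 ratio of 1.94. Sftpd, the secreted collectin surfactant protein D, differed by 0.65 and had 2.84 (pair 1) and 0.55 (pair 2), the larger ratio in pair 1 as for Ceacam10. Hs3st3b1, a heparan sulfate sulfotransferase, differed by 0.71 and St8sia6, a sialyltransferase, by 0.74. None of the 37174 kept probes lay within 0.25 of Ceacam10 on every array, a count of 0. The count was also 0 for the Ceacam1 probe A_51_P171728, so it does not set Ceacam10 apart.

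For the Ceacam1 probe A_51_P171728 the same measure was taken after its values were seen. Among probes with a gene symbol, the nearest were those of Csnk1a1, a casein kinase (0.22), and the noncoding RNA Malat1 (0.24). The stress gene Gadd45b (0.31) and the metallothionein Mt2 (0.34) followed. Csnk1a1 gave -1.14 (pair 1) and 0.81 (pair 2), and its other probe near the top of the order gave -1.03 and 0.72. A set of 7 probes, counting this one, were at least 1 lower in pair 1 and at least 1 higher in pair 2, the others being Mmp14, S100a6, Mgp, Cebpd, Hoxa7 and Ramp2.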

How the data were processed

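Tumour RNA of 2 Cdc25a;neu and 2 neu mice was measured on 4 arrays. The deposited scanner output gives, per the file headers, each spot's intensity and local background, the processed signal and the log10 of the Cy5 to Cy3 ratio, from Agilent Feature Extraction 7.5.1 (7.2 per the submitters' processing notes). The authors' deposited value table holds the natural log of the Cy5 to Cy3 ratio (slopes of 2.27 to 2.29 against the scanner's log10 ratio, where 2.30 is expected for natural logs; column medians 0.0208, 0.0006, 0.0208 and 0.0079). Its scale and direction were found from the scanner values. Its centring stays unknown, and it was used as an alternative.

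Intensities were background-corrected (normexp, offset 50) and normalized by loess within each array with limma 3.58.1 in R 4.3.3, with control spots at weight 0. Control and outlier-flagged spots were left out, and repeated spots of a probe were averaged. The filter required a signal well above background on 2 or more arrays in either channel, which 37174 of 41174 probes passed, all 9 of the family among them. Ratios were turned to Cdc25a;neu over neu, with the mean of each pair's 2 arrays taken. Levels per mouse came from loess followed by Aquantile. The limma fit tested the pair ratios against 0, two-sided, with Benjamini-Hochberg adjustment over all kept probes, and was tested on simulated data. The share of spots well above background was 78.5% to 92.2% in Cy3 and 82.7% to 87.9% in Cy5. Arrays of the same pair correlated at 0.643 and 0.754 over all kept probes, and arrays of different pairs at 0.196 to 0.364. The number of pairs limits the precision. Each array lay on a slide of its own. The labels name the mice but no shared litter, so the p-values cover the spread between these pairs only.

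Probe names came from the array, updated through RefSeq's table for GRCm38.p6, which also gave the order of genes. The array's files name no build. Windows of 250 bases before each start came from RefSeq and were aligned locally with Biopython 1.88 (match 1, mismatch -1, gap opening -3, extension -1). For Ceacam10 and Ceacam12, which had 2 windows each, only that at the outermost gene start was used. The genes named are all probes of the family and up to 4 members of each list with the largest mean ratio. Also named are the measured genes among 10 neighbours on each side, and the 6 probes with a gene symbol most like Ceacam10. A few genes picked out this way are not reported here. The family, the gene lists and these rules were chosen with earlier results of these data known. Ptpn6, Ptpn11, Lyn, Usf1 and Usf2, the probes like Ceacam1, neighbours singled out, and marker sums without Lyz2 or Ltf were chosen after their values were seen.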

Additional observations from a re-analysis of the deposited data

Results flagged for a closer look

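The Ceacam1 probe A_51_P171728 had opposite ratios in the mouse pairs, with a log2 ratio of Cdc25a;neu over neu of -1.28 in pair 1 and 1.03 in pair 2. Both arrays of pair 1 lay below 0 and both arrays of pair 2 above it, and the difference between the pairs was not tested, since each pair is 1 mouse per genotype. The other Ceacam1 probe gave -0.05 and 0.11. No group had the 4 samples that a search for outlying samples needs.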

How the results depend on the processing

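Ceacam10 kept a mean log2 ratio above 0 in all 16 alternatives, from 1.05 (pair 2 alone) to 2.08 (pair 1 alone). Not all of these could change it, since other filters and fitted models leave the mean as it is. With all 4 of its arrays above 0, leaving out arrays or a pair could not turn its sign. Ceacam2, also above 0 on all 4 arrays, stayed above 0 in the mean in all 16, from 0.16 to 0.42. Ceacam9 stayed below 0 in the mean in all 16, from -0.38 to -0.02. For Ceacam2 and Ceacam9, too, other filters and fitted models leave the mean as it is. Leaving out a pair could not turn the sign of Ceacam9, since both its pair ratios were below 0. Without the pair 1 array that has Cdc25a;neu in Cy5, the pair 1 ratio of Ceacam9 was 0.03. The mean of Ceacam1 (A_51_P171728) was -1.28 with pair 1 alone and 1.03 with pair 2 alone. The means of Ceacam11, Ceacam12, Ceacam13, Ceacam14 and the other Ceacam1 probe changed sign between alternatives and stayed within -0.05 to 0.37. The count of probes that limma called, 0 as reported, was 1109 with median centring and 950 with 4 arrays as units, and 0 in the other alternatives run, with and without the pair as a replicate block included. Normexp with no offset, added after seeing the data, gave 0 as well. Ceacam probes with a ratio above 0 in both pairs numbered 3 of 9, where 4530 of 15304 named genes had this. The Ceacam count was 5 with the scanner's processed signals without loess, 5 with them and loess, and 5 with median centring. It was 4 with the authors' deposited table and 2 with the filter on all 4 arrays. With 1 array left out the count was 3 to 5, with 5 without the pair 1 array that has Cdc25a;neu in Cy3. The causes were not tested. A mean over several Ceacam10 probes could not be taken because there is 1 probe, and with 1 pair left out no test could be run. Weak signal limits Ceacam9 and Ceacam11 most.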
